A study of Mus musculus with 20 samples.

Results

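The small leucine-rich proteoglycans (SLRPs) are secreted matrix proteins whose core is a run of leucine-rich repeats. Most carry chondroitin, dermatan or keratan sulfate chains, and several bind collagen fibrils and set their spacing and width. In cartilage, tendon and bone they also hold growth factors such as TGF-β in the matrix, and they are cut by the same metalloproteinases that degrade collagen and aggrecan. Here 10 SLRP genes were followed by name: *Dcn*, *Bgn*, *Fmod*, *Lum*, *Prelp*, *Ogn*, *Aspn*, *Epyc*, *Omd* and *Chad*. They were picked by family membership out of 54532 genes in the count table, with earlier results of these data known.

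RNA was sequenced from the condylar head of the mouse temporomandibular joint (TMJ), taken with some of the bone under its cartilage. All animals had both *Loxl2* alleles flanked by loxP sites (*Loxl2* fl/fl) and a tamoxifen-inducible Cre driven from the aggrecan locus (Acan-CreERT2), so that recombination was aimed at aggrecan-expressing cells. Vehicle was given to the 8 control animals, and 75 mg/kg tamoxifen to the 12 animals labelled knockout, in 5 daily injections and then monthly, from 6 months of age for 4 months, with both sexes in each group. The deletion and the drug therefore cannot be told apart, and the control animals carried the same floxed alleles and the same Cre.

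*Loxl2* itself, the targeted gene, was measured at 16, 70.3 and 103 CPM (lowest, median and highest of the 8 control libraries) and at 28.8, 110 and 126 CPM in the 12 libraries labelled knockout; CPM are counts scaled to a common library size. Its change on the log2 scale, written log2 change below, was 0.64 (SE 0.28, edgeR adjusted p = 0.101), with 11 of 12 libraries labelled knockout above the control median, and 0.35 without control replicates 6 and 8 (adjusted p = 0.314). The whole-gene count was thus not lower in the group labelled knockout, and the deleted exons were not measured separately. In its knockout mice the study reported reduced LOXL2 by immunohistochemistry, a measure of protein in the tissue rather than of RNA. All directions below are those of libraries labelled knockout against control.

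The tissue label was checked against chondrocyte markers. The defining cartilage genes *Col2a1* (1.68 to 1159 CPM in control and 66.3 to 2267 CPM in libraries labelled knockout), *Acan* (2.22 to 276 and 5.18 to 244 CPM) and *Comp* were present, whereas *Matn1* was at 0 in every control library, and *Matn3* and *Cnmd* stayed under 1 CPM in control. The same libraries carried 42284 to 153670 CPM in control, and 29949 to 78279 CPM in the group labelled knockout, over a list of 10 skeletal muscle genes. They held markers of cartilage, bone, fibrous tissue and muscle, and in such bulk samples fewer cells of a type and less RNA per cell cannot be told apart.

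Control replicates 6 and 8 stood apart from the other 6 control libraries. The summed level of the 10 SLRPs was 1450 and 1016 CPM in these libraries and 3721 to 6523 CPM in the other controls. The 12-gene chondrocyte list was at 241 and 71.3 CPM against 1507 to 3253 CPM, and the osteoblast and osteocyte list at 268 and 218 CPM against 936 to 2112 CPM. The log2 change of each tested SLRP is therefore given with and without both libraries, an alternative chosen after the data were seen.

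Of the 10 SLRPs, 9 passed the filter on low counts and 3 passed the test, all with higher levels in the libraries labelled knockout: *Bgn*, *Aspn* and *Lum*. This was 33.3% of the 9 tested, beside 23.0% of all 15984 genes tested (12.0% higher); by DESeq2 the same 3 passed, beside 22.3% of the genes it tested. The median log2 change of the 9 SLRPs was 0.48, against -0.02 over all genes. Of the 9 values 8 were positive, beside 7683 of all 15984. Control replicates 6 and 8 were low for every tested SLRP, so these signs are not independent of each other. Without control replicates 6 and 8, *Bgn* and *Aspn* passed and *Lum* did not, while 10.3% of all genes tested passed in that fit. There the median over the 9 was 0.15, against -0.03 over all genes tested, and *Omd* was negative too (-0.04). No SLRP had groups that did not overlap, which held for 0.3% of all genes tested.

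**Figure D1:**
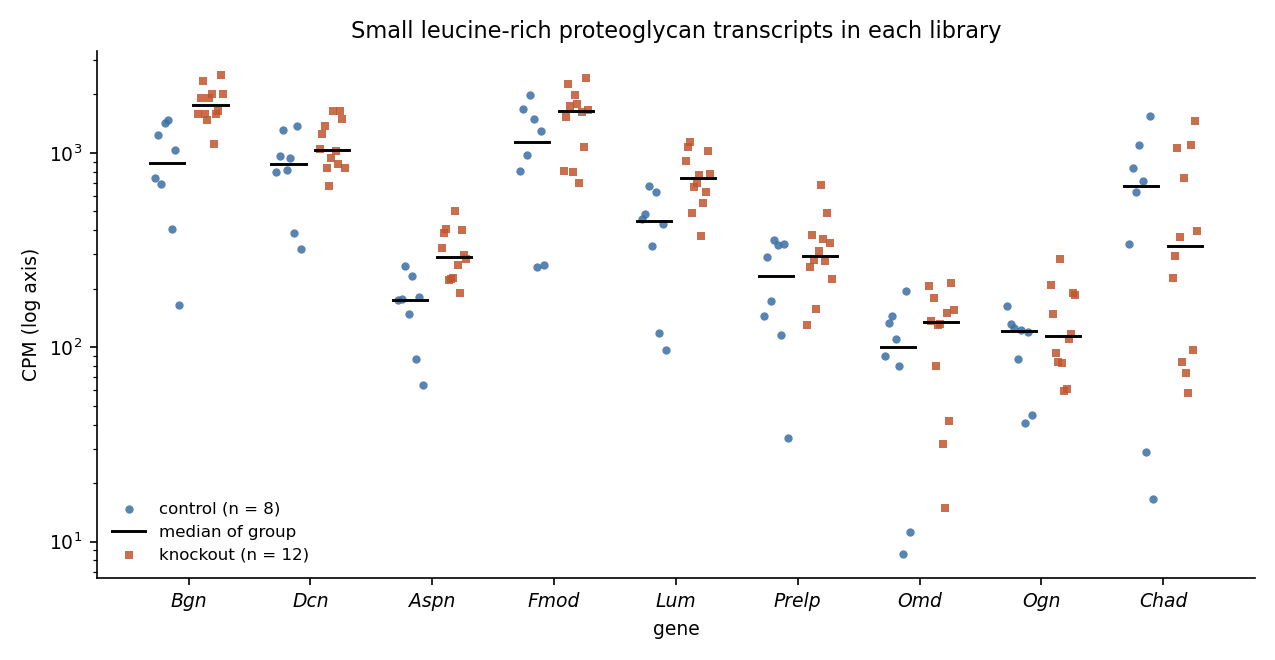
CPM (log axis) of the 9 tested SLRP genes in each of the 8 control libraries (circles) and the 12 libraries labelled knockout (squares), with black lines at the group medians. The *Bgn* squares lie above all controls in 11 of 12 libraries, the lowest control points belong to replicates 6 and 8, and *Chad* and *Omd* spread the widest in both groups.

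The upstream sequences of 4 members are given first, for *Bgn*, the X-linked gene with the largest fold change, and for *Aspn*, *Omd* and *Ogn*, neighbours on chromosome 13 of which *Aspn* alone passed the test. Each run holds the 250 bases before the gene start in RefSeq (GRCm38.p6, plus strand, 5′ to 3′), and 8 of the 10 members had an entry. The RefSeq start of *Ogn* lies 31 bases from that of GENCODE, the annotation used for gene coordinates below. Capitals mark matches on either strand to any of 5 short motifs: the TATA box TATAAA, the AP-1 site TGANTCA, the RUNX core TGTGGT, the SOX core ACAATG and the SMAD box CAGAC.
Bgn, chrX:73483351-73483600: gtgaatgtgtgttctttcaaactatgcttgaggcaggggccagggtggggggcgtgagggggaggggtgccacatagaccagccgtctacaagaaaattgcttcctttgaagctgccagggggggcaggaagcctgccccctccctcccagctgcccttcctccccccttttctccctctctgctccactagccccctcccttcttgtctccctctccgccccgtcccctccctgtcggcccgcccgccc
Aspn, chr13:49544193-49544442: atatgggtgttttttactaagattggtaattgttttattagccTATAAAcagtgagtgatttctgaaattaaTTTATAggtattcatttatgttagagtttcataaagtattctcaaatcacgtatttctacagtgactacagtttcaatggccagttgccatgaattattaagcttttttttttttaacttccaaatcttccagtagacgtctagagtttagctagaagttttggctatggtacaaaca
Omd, chr13:49582212-49582461: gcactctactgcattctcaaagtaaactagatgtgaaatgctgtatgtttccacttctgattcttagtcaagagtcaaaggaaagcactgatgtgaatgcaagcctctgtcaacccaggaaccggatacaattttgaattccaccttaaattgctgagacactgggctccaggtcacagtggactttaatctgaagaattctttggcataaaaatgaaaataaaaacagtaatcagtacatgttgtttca
Ogn, chr13:49607765-49608014: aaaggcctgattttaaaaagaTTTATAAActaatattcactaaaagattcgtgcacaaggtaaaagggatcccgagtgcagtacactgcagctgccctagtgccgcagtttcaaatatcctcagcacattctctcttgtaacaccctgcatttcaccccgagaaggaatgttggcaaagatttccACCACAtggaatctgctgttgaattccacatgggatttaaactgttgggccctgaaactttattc

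The windows differed in base composition, with 64.4% G and C before *Bgn*, 30.0% before *Aspn*, 38.4% before *Omd* and 42.0% before *Ogn*. The *Aspn* window held TATAAA at 207 bases and, on the other strand, at 178 bases before the start. In the *Ogn* window the TATA matches at 229 and 227 bases overlapped on opposite strands, and the RUNX core lay at 65 bases. The *Bgn* and *Omd* windows held none of these letters. Among the other members, *Chad* had TATAAA at 28 bases, *Fmod* had CAGAC at 195 and 148 bases, *Prelp* had CAGAC at 161 bases and *Epyc* had ACAATG at 237 bases. Of 32851 promoter windows of the same length, 12.4% held TATAAA, 6.75% TGANTCA, 14.0% TGTGGT, 10.7% ACAATG and 42.2% CAGAC, so each of these matches is a description of letters only.

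*Bgn* (biglycan, ENSMUSG00000031375) encodes a proteoglycan of the class I SLRPs with glycosaminoglycan chains on its core, which binds collagen and, when released, is known to act on Toll-like receptors. The gene lies at chrX:73483602-73495933 on the plus strand. Its lowest, median and highest levels were 166, 888 and 1472 CPM in control and 1115, 1772 and 2525 CPM in libraries labelled knockout. The 12 libraries labelled knockout all lay above the control median, and 11 lay above the highest control. Mean levels were 897 ± 476 CPM (SD, n = 8) and 1811 ± 391 CPM (SD, n = 12), a log2 change of 1.01 (SE 0.28, edgeR adjusted p = 0.0149). Without control replicates 6 (407 CPM) and 8 (166 CPM), the log2 change was 0.71 (SE 0.19, edgeR adjusted p = 0.0234).

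*Aspn* (asporin, ENSMUSG00000021388; chr13:49544443-49567565, plus strand) is a class I relative with an aspartate-rich stretch, known to bind collagen and TGF-β1. Control libraries held 63.9, 176 and 261 CPM (lowest, median, highest) and libraries labelled knockout 191, 290 and 501 CPM. As for *Bgn*, all 12 libraries labelled knockout were above the control median, and 8 were above the highest control. The means were 166 ± 66.4 CPM (SD, n = 8) and 311 ± 94.9 CPM (SD, n = 12), with a log2 change of 0.91 (SE 0.23, edgeR adjusted p = 0.00916). Leaving out control replicates 6 and 8 gave 0.66 (SE 0.19, edgeR adjusted p = 0.0365).

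*Dcn* (decorin, ENSMUSG00000019929; chr10:97479609-97518143, plus strand), the third class I gene, carries a single glycosaminoglycan chain and limits the lateral growth of collagen fibrils. Its levels were 319, 881 and 1378 CPM in control and 673, 1035 and 1645 CPM in libraries labelled knockout. The groups overlapped widely, with 8 of 12 libraries labelled knockout above the control median. The log2 change was 0.39 (SE 0.24, 95% interval -0.08 to 0.87, edgeR adjusted p = 0.247), and 0.13 without control replicates 6 and 8 (edgeR adjusted p = 0.715).

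*Bgn* was also set against *Dcn* within each library. The log2 ratio of their CPM ran from -0.95 over a median of -0.01 to 0.80 in control, and from -0.01 over 0.76 to 1.26 in libraries labelled knockout. This ratio compares the genes inside each library and does not depend on library scaling. The ranges of the groups overlapped, and the difference was not tested.

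*Lum* (lumican, ENSMUSG00000036446; chr10:97565128-97572703, plus strand) is a keratan sulfate proteoglycan of class II that regulates fibril assembly. It lies 46984 bases from *Dcn*. Levels ran from 96.8 over 444 to 674 CPM in control and from 375 over 738 to 1136 CPM in libraries labelled knockout. A share of 11 of 12 libraries labelled knockout were higher than the control median, and 7 exceeded the highest control. The means of 403 ± 213 CPM (SD, n = 8) and 758 ± 237 CPM (SD, n = 12) gave a log2 change of 0.91 (SE 0.30, edgeR adjusted p = 0.0351). The call of *Lum* was the least stable of the 3: it was lost without control replicate 4, 6 or 8 and without knockout replicate 1, 8, 10 or 11, with edgeR adjusted p from 0.0505 to 0.0630 in these 7 fits. Without control replicates 6 and 8 together, the log2 change was 0.59 (SE 0.21, edgeR adjusted p = 0.0804).

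*Lum* was set against *Dcn*, its neighbour, in the same way, with no test. The log2 ratio had a median of -1.15 in control (-1.72 to -0.58) and of -0.49 in libraries labelled knockout (-1.45 to -0.01), so the ranges of the groups overlapped.

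*Fmod* (fibromodulin, ENSMUSG00000041559; chr1:134037254-134048277, plus strand) is a class II protein that shares a collagen binding site with lumican. It was the most abundant SLRP per length in the libraries labelled knockout. Its levels were 259, 1135 and 1981 CPM in control and 697, 1641 and 2415 CPM in libraries labelled knockout, with 8 of 12 above the control median. The log2 change was 0.48 (SE 0.34, 95% interval -0.18 to 1.15, edgeR adjusted p = 0.313). It was 0.15 without control replicates 6 and 8 (edgeR adjusted p = 0.754), so most of the difference in means lay in those libraries, at 259 and 264 CPM.

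*Prelp* (ENSMUSG00000041577; chr1:133910304-133921414, minus strand), a class II protein with a basic, heparin-binding end, lies 115839 bases from *Fmod*. It was measured at 34.1, 232 and 358 CPM in control and 131, 296 and 687 CPM in libraries labelled knockout. The log2 change was 0.54 (SE 0.34, 95% interval -0.14 to 1.21, edgeR adjusted p = 0.266), with 9 of 12 libraries labelled knockout above the control median. Without control replicates 6 and 8 it was 0.24 (edgeR adjusted p = 0.627). Knockout replicates 4 and 7 held the highest *Prelp*, 687 and 491 CPM.

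*Omd* (osteomodulin or osteoadherin, ENSMUSG00000048368; chr13:49582462-49592822, plus strand) is the class II member of mineralised tissue, made by osteoblasts. Levels were 8.64, 100 and 194 CPM in control and 14.9, 134 and 214 CPM in libraries labelled knockout. Control replicates 6 and 8 and knockout replicates 4, 5 and 7 formed the low end in their groups, at 8.64, 11.2, 31.7, 14.9 and 41.7 CPM. The log2 change was 0.35 (SE 0.50, 95% interval -0.63 to 1.32, edgeR adjusted p = 0.650). It turned to -0.04 without control replicates 6 and 8 (edgeR adjusted p = 0.959), and no direction is read from it.

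*Ogn* (osteoglycin or mimecan, ENSMUSG00000021390; chr13:49608046-49624501, plus strand) belongs to class III and is made in bone and fibrous tissue. It was at 40.7, 121 and 163 CPM in control and at 59.2, 114 and 283 CPM in libraries labelled knockout, so the control median was the higher. The log2 change was 0.37 (SE 0.30, 95% interval -0.22 to 0.97, edgeR adjusted p = 0.394), and 0.10 with control replicates 6 and 8 left out (adjusted p = 0.849). Only 5 of 12 libraries labelled knockout were higher than the control median, with knockout replicate 2 the highest at 283 CPM.

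*Epyc* (epiphycan, ENSMUSG00000019936; chr10:97644068-97682454, plus strand), the class III gene of growth plate cartilage, was close to undetected. Libraries held 0 to 15 counts in control and 0 to 13 in the group labelled knockout, and the gene did not pass the filter. Mean levels of 0.087 and 0.109 CPM were under the 3-count floor of 0.111 to 0.269 CPM, so a difference could not be seen at this depth.

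*Chad* (chondroadherin, ENSMUSG00000039084; chr11:94565047-94569127, plus strand) is the class IV protein of cartilage, which binds integrin α2β1 and lacks glycosaminoglycan chains. It ran from 16.5 over 674 to 1553 CPM in control and from 58.0 over 331 to 1467 CPM in libraries labelled knockout. It was the only tested SLRP with a negative log2 change, -0.39 (SE 0.69, 95% interval -1.75 to 0.97, edgeR adjusted p = 0.719), and 8 of 12 libraries labelled knockout lay below the control median. Without control replicates 6 and 8 the value was -0.80 (SE 0.59, edgeR adjusted p = 0.398). The interval spans a range in which neither a rise nor a fall can be told.

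**Figure D2:**
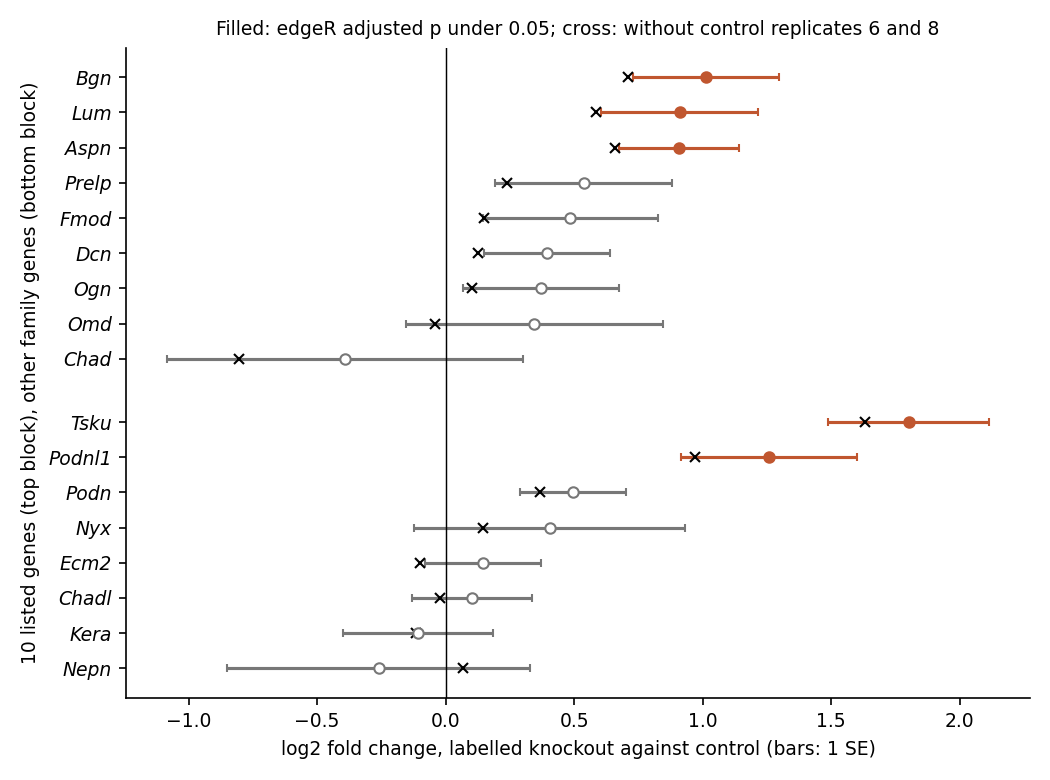
Log2 fold change of libraries labelled knockout against control for the 9 tested SLRP genes (upper block) and 8 tested relatives (lower block), with bars of 1 SE. Filled points have an edgeR adjusted p under 0.05 (*Bgn*, *Lum*, *Aspn*, *Tsku* and *Podnl1*), and crosses give the value without control replicates 6 and 8, which is lower than the value from all 20 libraries for each of the 9 SLRPs.

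Levels of different genes were compared per length, as RPKM (CPM per kilobase of merged exons). In control the order was *Chad* (388 ± 313 RPKM, SD, n = 8), *Fmod* (331 ± 191), *Lum* (165 ± 86.8), *Dcn* (148 ± 65.2), *Bgn* (147 ± 78.0), *Aspn* (70.3 ± 28.2), *Prelp* (62.0 ± 33.8), *Omd* (42.9 ± 28.5), *Ogn* (40.7 ± 16.9) and *Epyc* (0.034 ± 0.076). Neighbours in this order overlapped within 1 SD, except *Ogn* and *Epyc*, although *Fmod* exceeded *Lum* within each of the 8 libraries. In libraries labelled knockout the order was *Fmod* (463 ± 173 RPKM, SD, n = 12), *Lum* (310 ± 96.6), *Bgn* (297 ± 64.1), *Chad* (296 ± 286), *Dcn* (195 ± 57.4), *Aspn* (132 ± 40.3), *Prelp* (89.9 ± 41.6), *Omd* (54.6 ± 29.7), *Ogn* (52.7 ± 26.9) and *Epyc* (0.043 ± 0.055). Again only *Ogn* and *Epyc* were apart by more than their spread, and *Dcn* exceeded *Aspn* within each of the 12 libraries.

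As a share of the summed SLRP RPKM of each library, *Bgn* in control was 11.3% ± 3.5 (SD, n = 8), and in the group labelled knockout 16.2% ± 2.1 (SD, n = 12). The share of *Lum* was 12.8% ± 3.9 and 16.8% ± 4.1, and that of *Chad* 22% ± 13 and 13.5% ± 10.3. *Fmod* held 24.0% ± 4.7 and 24.1% ± 4.6. These shares sum to the whole, so they were not tested separately.

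The SLRPs' coefficient of variation in control was 40.1% (*Aspn*) to 80.7% (*Chad*) among the 9 tested, beside a median of 19.3% over 3108 genes with a mean of at least 50 CPM. These values rested largely on control replicates 6 and 8: over the other 6 controls they were 19.4% (*Ogn*) to 48.7% (*Chad*), with *Aspn* at 21.7% and *Dcn* at 24.0%, beside a median of 15.3%. In libraries labelled knockout it was 21.6% (*Bgn*) to 96.4% (*Chad*), beside 17.4%. *Bgn* was thus the most even of the 9 among libraries labelled knockout.

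The 12 libraries labelled knockout were used to ask which SLRPs varied together. *Bgn* and *Fmod* were correlated on the log2 scale (r = 0.86, adjusted p = 0.0036; rho = 0.88, adjusted p = 0.0274; permutation tests over 12 libraries, adjusted over the 72 relations among members in both groups). With the 2 libraries farthest from the *Bgn* median left out, r was 0.75. *Dcn* and *Aspn* were also correlated (r = 0.83, adjusted p = 0.0307; rho = 0.85, adjusted p = 0.0371; permutation tests), with r = 0.73 in the reduced set. *Bgn* and *Lum* passed by r (0.83, adjusted p = 0.0307, permutation test) but not by rho (0.68, adjusted p = 0.148, permutation test). *Prelp* and *Ogn* ran in opposite directions (r = -0.75, adjusted p = 0.0627; rho = -0.71, adjusted p = 0.148; permutation tests), which did not pass the adjustment. Over the 36 pairs the median r was 0.41. Over the 9 libraries other than knockout replicates 4, 5 and 7, r was 0.78 for *Bgn* and *Fmod*, 0.74 for *Dcn* and *Aspn* and 0.70 for *Bgn* and *Lum*. Some other pairs changed more, which was not tested. For *Fmod* and *Prelp* r went from 0.41 to 0.97 and for *Lum* and *Aspn* from 0.54 to 0.92, while for *Omd* and *Chad* it fell from 0.75 to 0.32. In some pairs r changed sign, as for *Prelp* and *Chad* (-0.11 to 0.83) and *Dcn* and *Omd* (-0.23 to 0.59). For *Ogn* and *Chad* it went the other way (0.14 to -0.58).

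In control, correlations over all 8 libraries would rest on replicates 6 and 8, which were low for every tested SLRP, so the other 6 were used. None of the 36 pairs passed the adjustment there (5 had an unadjusted permutation p under 0.05 by r and 2 by rho), and the median r was -0.01. By rho a single pair could not pass even with fully matching ranks, as 6 libraries allow too few orders. The lack of calls by rho is therefore not read. Low libraries were left out here, whereas those low in *Omd* and *Chad* were kept in the group labelled knockout. The median r is therefore not compared between the groups. The closest pair, *Lum* and *Aspn*, had r = 0.97 (adjusted p = 0.0627, exact permutation test) and rho = 0.83 (adjusted p = 0.280, exact permutation test).

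**Figure D3:**
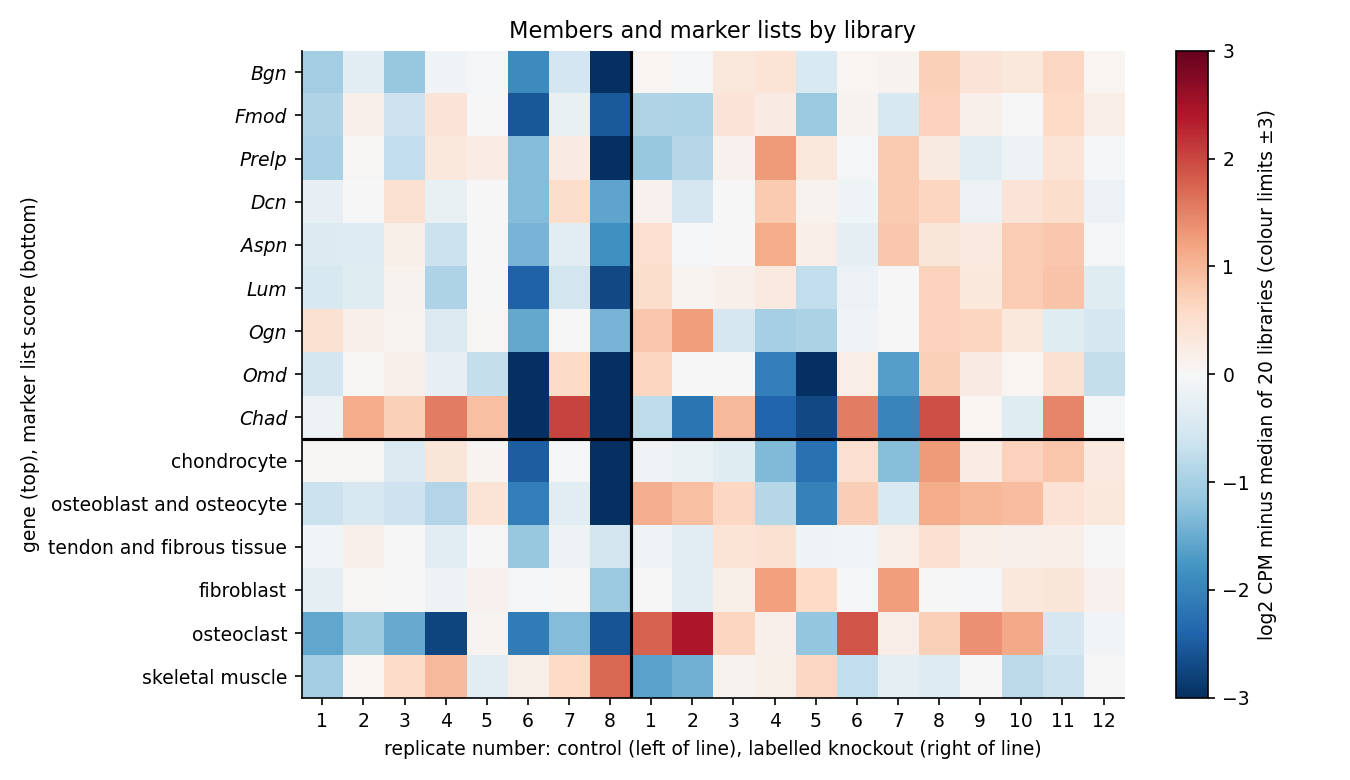
Log2 CPM of the 9 tested SLRPs and mean log2 CPM of 6 marker lists (rows) in the 20 libraries (columns, by replicate number), each as the difference from the row's median over all libraries. Control replicates 6 and 8 are blue in all SLRP rows, and knockout replicates 4, 5 and 7 are low in *Omd*, *Chad* and the chondrocyte list while *Prelp* is above its median there.

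Each SLRP was then set against scores of 5 marker lists (mean log2 CPM), as the libraries differed in tissue makeup. Among libraries labelled knockout, *Omd* followed the osteoblast and osteocyte list (r = 0.97, adjusted p = 0.0009; rho = 0.86, adjusted p = 0.0269; permutation tests over 12 libraries, adjusted over 90 relations), with r = 0.89 without the 2 farthest libraries. Knockout replicates 4, 5 and 7 lay apart at the low end, and r over the other 9 libraries was 0.66. *Chad* followed the chondrocyte list (r = 0.83, adjusted p = 0.0162; rho = 0.81, adjusted p = 0.0269; permutation tests), with r = 0.73 without the 2 farthest libraries and 0.61 over the same 9. Over those 9, r of *Chad* was 0.72 with tendon and fibrous tissue, 0.54 with skeletal muscle and 0.46 with fibroblast. With the osteoblast and osteocyte list it was -0.21. *Omd* also followed the chondrocyte list (r = 0.90, adjusted p = 0.0144; rho = 0.79, adjusted p = 0.0361; permutation tests), with r = 0.73 without the 2 farthest libraries and 0.36 over the 9.

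*Prelp* followed the fibroblast list (r = 0.83, adjusted p = 0.0200; rho = 0.83, adjusted p = 0.0269; permutation tests), and r was 0.83 without the 2 farthest libraries and 0.62 over the 9 libraries other than knockout replicates 4, 5 and 7. Over those 9, r of *Prelp* was as high with other lists: 0.73 with tendon and fibrous tissue, 0.72 with skeletal muscle and 0.61 with chondrocyte. With the osteoblast and osteocyte list it was -0.50. *Dcn* passed for the fibroblast list by r (0.76, adjusted p = 0.0401) but not by rho (0.74, adjusted p = 0.0788; permutation tests), with r = 0.52 without the 2 farthest libraries and 0.66 over the 9. *Ogn* was positively related to the osteoblast and osteocyte list (r = 0.75, adjusted p = 0.0401; rho = 0.83, adjusted p = 0.0269; permutation tests; r = 0.74 without the 2 farthest, 0.84 over the 9) and negatively to the skeletal muscle list (r = -0.77, adjusted p = 0.0448; rho = -0.82, adjusted p = 0.0269; permutation tests; r = -0.66 and -0.64). *Bgn* was positively related to the tendon and fibrous tissue list (r = 0.77, adjusted p = 0.0432; rho = 0.92, adjusted p = 0.0117; permutation tests; r = 0.74 and 0.86). *Fmod* passed for the tendon list by rho alone (0.84, adjusted p = 0.0269; r = 0.76, adjusted p = 0.0530; permutation tests). *Kera*, itself an SLRP relative described below, is among the genes of that tendon list. In the 6 other control libraries none of the 45 relations passed (2 had an unadjusted exact permutation p under 0.05 by r and 0 by rho).

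**Figure D4:**
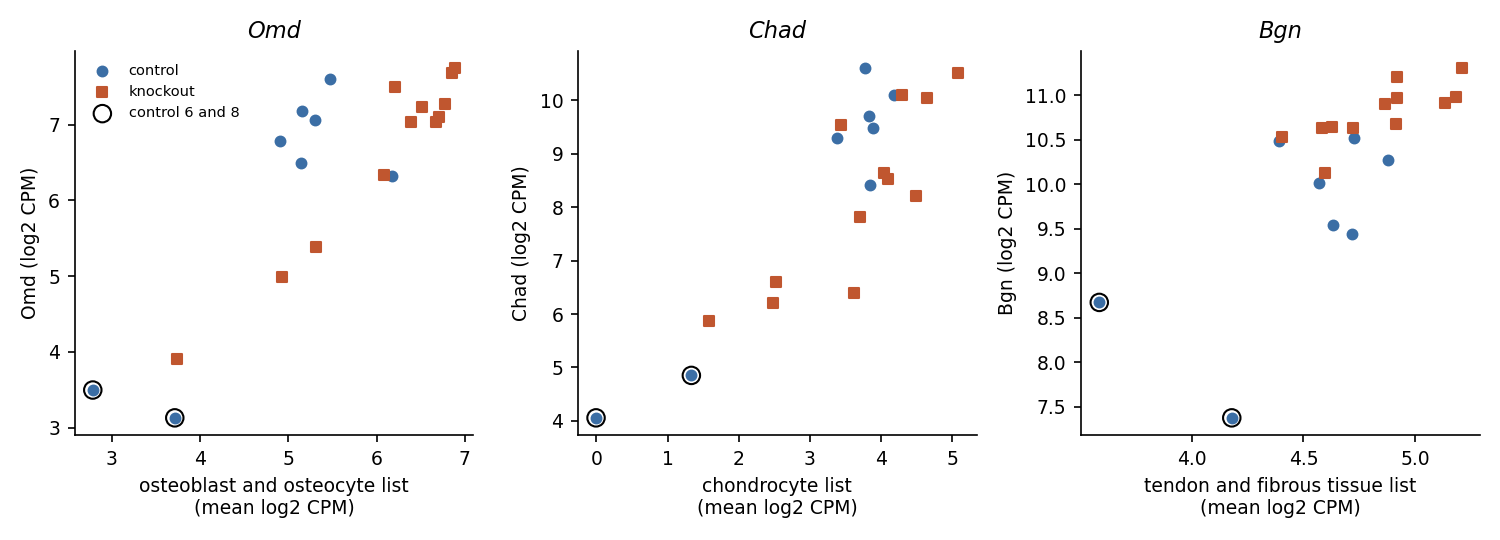
Log2 CPM of *Omd*, *Chad* and *Bgn* against the mean log2 CPM of a marker list in each library (circles control, squares labelled knockout, rings control replicates 6 and 8). Among the squares r is 0.97 for *Omd*, 0.83 for *Chad* and 0.77 for *Bgn*, and the rings lie at or near the low end of each list.

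The marker lists also differed between the groups. All 8 osteoclast genes, all 6 macrophage genes and 6 of 12 osteoblast and osteocyte genes were higher in libraries labelled knockout, 4 of 10 skeletal muscle genes were lower, and 2 of 9 tested chondrocyte genes were higher (*Col9a1* and *Col11a2*). Beside these counts, 1918 of all 15984 genes tested were higher and 1755 lower. Without control replicates 6 and 8 the list counts were 6, 3, 1, 1 and 1, in the same order. In that fit 1016 of all 16551 genes tested were higher and 687 lower. The summed osteoclast list spanned 152 to 1040 CPM in control and 508 to 5593 CPM in libraries labelled knockout, the macrophage list 36.4 to 206 and 124 to 520 CPM, and the osteoblast and osteocyte list 218 to 2112 and 341 to 4479 CPM. None of the tested adipocyte, endothelial, neutrophil, erythroid and Y chromosome genes passed edgeR's adjusted threshold, although 5 of 6 neutrophil and 4 of 6 erythroid genes had an unadjusted p under 0.05 and DESeq2 called 1 neutrophil gene. A further 1 of 4 hypertrophic chondrocyte genes, 2 of 6 tendon and fibrous tissue genes and 2 of 8 fibroblast genes were higher, beside 12.0% of all genes, and 0, 1 and 0 without control replicates 6 and 8.

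The scores of the chondrocyte, osteoblast and osteocyte, skeletal muscle and osteoclast lists were each entered as a covariate beside the group. The tendon and fibrous tissue score and the fibroblast score were not entered. With the chondrocyte list, *Bgn* kept a log2 change of 0.94 (edgeR adjusted p = 0.00266), *Aspn* 0.88 (adjusted p = 0.0104) and *Lum* 0.77 (adjusted p = 0.0140). With the osteoblast and osteocyte list, *Bgn* was at 0.62 (adjusted p = 0.15), *Aspn* at 0.78 (adjusted p = 0.0761) and *Lum* at 0.40 (adjusted p = 0.352). The skeletal muscle list gave *Bgn* 0.89 (adjusted p = 0.0838), *Aspn* 0.81 (adjusted p = 0.0547) and *Lum* 0.60 (adjusted p = 0.237). With the osteoclast list no gene of the 15984 passed, and *Bgn* was at 0.74 (adjusted p = 0.689), *Aspn* at 0.80 (adjusted p = 0.588) and *Lum* at 0.35 (adjusted p = 0.899). All 3 stayed positive in each of these fits, and genes of the osteoclast, osteoblast and muscle lists differed between the groups, so tissue makeup and group cannot be told apart by them. *Omd* passed in 1 such fit, with the osteoblast and osteocyte list, and in the lower direction (-1.22, edgeR adjusted p = 0.0278), where *Chad* was at -2.04 (adjusted p = 0.0521).

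For each SLRP the 2 protein-coding genes outside the 10 SLRPs nearest in pattern were found by Pearson's r of log2 CPM over the 20 libraries after removing the group means, among 10756 genes. *Bgn* was most like *Sdk2* (r = 0.95) and *Slc2a10* (0.94), *Aspn* like *Calhm5* (0.89) and *Adamts6* (0.88), and *Dcn* like *Lrig3* (0.90) and *Pcsk5* (0.89). *Dcn* and *Aspn* were as near to each other by the same measure (0.90). *Fmod* was most like *Cilp2* (0.96) and *Cspg4* (0.94), *Lum* like *Ikbip* (0.96) and *Tmem45a* (0.94), and *Prelp* like *Trabd2b* (0.94) and *Trim47* (0.92). *Omd* was most like *Fgfr1* (0.95) and *Runx2* (0.95), a factor of bone formation that is also in the osteoblast list, *Ogn* like *Slit2* (0.95) and *Gxylt2* (0.95), and *Chad* like *R3hdml* (0.96) and *1500015O10Rik* (0.96). These values include control replicates 6 and 8. Without them, r for the same genes was 0.73 to 0.84 for *Dcn*, *Aspn* and *Bgn* and 0.84 to 0.94 for the other SLRPs.

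Of 9 further leucine-rich repeat relatives, 8 were tested and 2 passed, both higher, which is 25% beside 23.0% of all genes. *Tsku* (tsukushi, a secreted inhibitor of BMP signalling) was at 2.83, 10.5 and 21.1 CPM in control and 15.9, 35.7 and 76.7 CPM in libraries labelled knockout, a log2 change of 1.80 (SE 0.31, edgeR adjusted p = 0.0013). It kept 1.63 without control replicates 6 and 8 (edgeR adjusted p = 0.00718). *Podnl1*, a podocan-like class V gene, was at 6.28, 18.3 and 30.0 CPM and 13.6, 39.6 and 92.4 CPM, a log2 change of 1.26 (SE 0.34, edgeR adjusted p = 0.0127) that was 0.97 without those libraries (adjusted p = 0.0588).

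The other relatives did not pass. *Podn* was at 0.50 (edgeR adjusted p = 0.0846), *Nyx* at 0.41, *Ecm2* at 0.14, *Chadl* at 0.10, *Kera* at -0.11 and *Nepn* at -0.26, while *Optc* was not tested at 0.284 and 0.209 CPM. *Ecm2*, *Aspn*, *Omd* and *Ogn* follow each other on chromosome 13 with gaps of 11653, 14896 and 15223 bases, and of the 4 only *Aspn* passed. *Dcn*, *Lum*, *Kera* and *Epyc* follow each other on chromosome 10 with gaps of 46984, 34175 and 30375 bases, and there only *Lum* passed.

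Genes of the pathways in which SLRPs act were counted from lists, which were chosen with earlier results of these data known. Beside these counts, 12.0% of all genes tested were higher, and 6.14% without control replicates 6 and 8. Of 14 collagen genes whose products SLRPs bind or accompany, 12 were higher and none lower, which is 85.7% of the list, with a median log2 change of 1.5 (10 were higher without control replicates 6 and 8). *Col5a1* and *Col5a2*, chains of the collagen that nucleates fibrils, were at 1.59 and 1.60 (SE 0.27 and 0.29), and *Col1a1* at 2.50 (SE 0.45), with 1117 to 10308 CPM in control and 3711 to 34969 CPM in libraries labelled knockout. *Col2a1* (0.99, edgeR adjusted p = 0.299) and *Col14a1* (0.86, adjusted p = 0.161) did not pass. The log2 changes of *Bgn*, *Aspn* and *Lum* were thus smaller in size than that of the median collagen gene.

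Of 24 tested genes that build and sulfate the chondroitin, dermatan and keratan chains, 12 (50%) were higher and none lower (median 0.51), and 9 of 25 were higher without control replicates 6 and 8. The chondroitin polymerising factors *Chpf* and *Chpf2* were at 0.99 (SE 0.20) and 0.52 (SE 0.11). *Chst14*, which sulfates the dermatan chain found on decorin and biglycan, was at 0.78 (SE 0.16), and the galactosyltransferase *B4galt1* at 0.47 (SE 0.13).

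Among 17 proteases of the matrix and enhancers of their action, 10 (58.8%) were higher and none lower (median 1.24), and 9 without control replicates 6 and 8. *Adamts4*, an aggrecanase, was at 2.06 (SE 0.32) with 0.919 to 4.91 CPM in control and 2.33 to 16.8 CPM in libraries labelled knockout. *Mmp14*, a membrane-bound collagenase, was at 1.78 (SE 0.29). *Pcolce*, an enhancer of procollagen cleavage, was at 1.36 (SE 0.23), and *Ctsk*, the collagenase of osteoclasts, at 2.68 (SE 0.47). *Ctsk* is also in the osteoclast list, whose 8 genes were all higher.

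Of 20 signalling partners and receptors of SLRPs, 8 (40.0%) were higher and none lower (median 0.35), and 5 without control replicates 6 and 8. *Tgfb1*, a ligand that several SLRPs bind, was at 1.06 (SE 0.18), and its receptor *Tgfbr2* at 0.66 (SE 0.13). *Tlr2*, a receptor for free biglycan, was at 0.87 (SE 0.21), with 1.99 to 10.2 CPM in control and 8.31 to 19.2 CPM in libraries labelled knockout. *Lrp1*, an endocytic receptor for decorin, was at 0.74 (SE 0.21). The part of tissue makeup in these list counts was not tested.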

How the data were processed

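Total RNA from 20 TMJ condylar heads was sequenced as paired-end Illumina reads. The authors trimmed the reads, mapped them to mm10 and deposited raw read counts per gene from featureCounts. The aligner, annotation release, use of strand and treatment of multi-mapping reads are not given in the sources used here, so reads shared by overlapping or antisense genes are uncertain. Groups and replicate numbers came from the sample titles. The methods give as many animals as there are libraries per group.

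Library totals were 11153820 to 27045668 counts; 3 counts, the floor, are 0.269 CPM in the shallowest and 0.111 CPM in the deepest library, for counting error only. No library pair held like counts (smallest chi-square per degree of freedom 32.9 over 190 pairs). Of 54532 genes, 54495 matched GENCODE M21 (GRCm38/mm10), which gave symbols, coordinates (1-based) and merged exon lengths.

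Counts were tested with edgeR 4.0.16 in R 4.3.3: filterByExpr, TMM, quasi-likelihood F-test, two-sided, Benjamini-Hochberg adjustment over all genes tested, threshold 0.05. Adjusted p-values of single genes are from this tool. SEs were derived from the F statistic. DESeq2 1.42.0, the tool of the study, was an alternative, as were other scalings, filters, covariates, a replicate block and leaving out each library. The code was tested on simulated data. Log2 CPM used a prior count of 2. Correlations used 100000 resamples over 12 libraries or all 720 orders over 6, two-sided.

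The SLRPs and the other lists were chosen with earlier results of these data known. From each pathway list the text names the 3 genes with the smallest p among those that passed and the most abundant gene; *Col2a1*, *Col14a1* and the single marker genes were named after their values were seen, outside this rule. Promoter sequences are from RefSeq.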

Additional observations from a re-analysis of the deposited data

Results flagged for a closer look

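*Epyc* in control replicate 1 was at 0.563 CPM, far from the other 7 control libraries: its gap to the nearest of them was 0.879 of the range of the group. Chance passes the limit of that test, which lies well under this value, in about 1 in 20 groups of normally distributed values. The other 7 control libraries held 0 or 1 count of *Epyc*, so that rate does not describe this flag. The level in control replicate 1 rests on 15 counts. The flag concerns a gene that did not pass the filter on low counts.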

How the results depend on the processing

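The number of SLRPs past the threshold, 3 of 9, was 3 with DESeq2, with the other scalings and filters and with the Y chromosome or chondrocyte list as covariate. It was 1 with the replicate block over 16 libraries, 1 in the same 16 without it and 1 with the osteoblast and osteocyte list (*Omd*, lower). It was 0 with the skeletal muscle list, where *Bgn* and *Aspn*, both higher, had an unadjusted edgeR p under 0.05. With the osteoclast list it was also 0, and *Aspn* (higher) and *Ogn* (lower) had an unadjusted edgeR p under 0.05. In that fit 0 of all genes passed, with 1257 at an unadjusted p under 0.05. Leaving out 1 library gave 2 to 3. Over all genes, the 3673 calls became 1786 with the block and 3280 in the same 16 libraries without it. Both of these fits tested 15571 genes. The calls were 1156 with the muscle list, 598 with the osteoblast and osteocyte list and 1703 without control replicates 6 and 8. With 1 library left out they were 2551 to 4181. With library totals as scaling, 72.0% of the calls were higher against 52.2%, and the median of all genes was 0.12 in place of -0.02. Replicate numbers did not pair the samples: same-numbered deviations correlated from -0.39 to 0.14 and no sample correlated best with its own number.

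*Ogn* turned to -0.18 with the muscle list, -0.36 with the osteoblast and osteocyte list and -0.92 with the osteoclast list. *Omd* turned to -0.24, -1.22 and -0.81 with the same lists, -0.11 with the chondrocyte list and -0.042 without control replicates 6 and 8. The cause was not tested. *Bgn* and *Aspn* kept their calls in all 20 fits without 1 library, with adjusted p up to 0.0316 and 0.0195, but *Bgn* lost its call in 5 and *Aspn* in 3 of 15 other alternatives: *Bgn* was at 1.12 with the block (edgeR adjusted p = 0.0973) and 0.95 in the same 16 libraries without it (adjusted p = 0.0508). *Loxl2* passed only without knockout replicate 12 (0.74, edgeR adjusted p = 0.0313). *Epyc* and *Optc* did not pass the filter on low counts and were not tested in the main fit. In the fit without that filter their edgeR adjusted p were 0.909 and 0.621.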
